A study of Mus musculus with 24 samples.

Results

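The miRNAs described here are miR-3472, miR-3473a, miR-3473b and miR-3473f of the mouse (mmu-miR-3472, mmu-miR-3473a, mmu-miR-3473b and mmu-miR-3473f in the files), 4 of the 1881 mouse miRNA rows on a miRNA array, taken by the systematic name of each row. They were measured in hepatocytes sorted along the lobule axis of the liver, which runs between the central vein and the portal tract. Viable tetraploid hepatocytes without CD45 and CD31 came from 3 male C57BL/6J mice aged 3 months, fed ad libitum under a reversed light cycle, and were ordered by a pericentral surface marker (CD73) and a periportal one (E-cadherin). The sort gave zones 5 to 8 on the periportal side, zone 8 being the outermost, and zones 1 to 4 on the pericentral side, zone 1 being the outermost, with 50000 cells and 1 array for each zone of each mouse. Each zone therefore had 3 arrays, and each mouse had its own slide. The zones are gates on surface proteins and not dissected regions. The 4 miRNAs were selected on their signals by zone in these same arrays, so the members' values by zone are a description without a test.

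MicroRNAs are short RNAs cut from hairpin precursors by Drosha and Dicer, and bases 2 to 8 from the 5′ end, the seed, select the messenger RNAs that an Argonaute protein bound to them represses. The common stretch of the miR-3473 series also occurs at the start of the B2 family of short interspersed repeats, which is present in very many copies in the mouse genome. miR-3473b has been studied mostly in mouse microglia and macrophages.

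The mature sequences are shown with the seed in capitals because the names group RNAs that do not share a seed (RefSeq, GRCm38.p6, 5′ to 3′).
miR-3472: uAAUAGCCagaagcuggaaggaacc
miR-3473a: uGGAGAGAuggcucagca
miR-3473b: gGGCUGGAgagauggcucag
miR-3473f: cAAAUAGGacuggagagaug
All 4 members matched this table. The mature sequences lie at chrX:145039390-145039414 on the plus strand for miR-3472, chrX:162874920-162874937 on the minus strand for miR-3473a, chr10:41670774-41670793 on the plus strand for miR-3473b and chr1:106546536-106546555 on the minus strand for miR-3473f. Each mature sequence lies within the bounds of a protein-coding gene: miR-3472 in Rtl4, a gene derived from a retrotransposon, miR-3473a in Syap1, miR-3473b in Ccdc162, and miR-3473f in Bcl2, which encodes an inhibitor of apoptosis. Whether these positions are exonic or intronic, or on the same strand as the gene, was not examined. Among 1679 mature miRNAs the seed of miR-3473a was shared with miR-882 and that of miR-3473b with miR-3473e, while the seeds of miR-3472 and miR-3473f were shared with none.

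The stretch that joins the 3 miR-3473 members is shown in capitals below, and it sits at a different place in each.
miR-3473a: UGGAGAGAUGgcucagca
miR-3473b: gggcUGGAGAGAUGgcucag
miR-3473f: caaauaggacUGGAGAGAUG
miR-3473e, not a member: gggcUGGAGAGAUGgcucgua
The 10-base run occupies bases 1 to 10 of miR-3473a, 5 to 14 of miR-3473b and 11 to 20 of miR-3473f. miR-3473a and miR-3473b share 16 consecutive bases, and miR-3473f shares 11 with miR-3473b. The longest run that miR-3472 shares with any of the 3 is 6 bases. Searched as TGGAGAGATG on both strands, the 10-base run was present in 4 of 1679 mature miRNAs, in 9 of 1005 hairpins and in 0.460% of 32851 promoter windows of 300 bases. The precursors of miR-3472 and miR-3473b are shown, with the mature part in capitals, because most of the mature sequence has its reverse complement on the other arm.
miR-3472 precursor: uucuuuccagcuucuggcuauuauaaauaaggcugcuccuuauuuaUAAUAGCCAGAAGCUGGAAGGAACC
miR-3473b precursor: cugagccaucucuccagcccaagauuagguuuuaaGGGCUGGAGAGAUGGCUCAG
The hairpin holds the reverse complement of all 20 bases of mature miR-3473b and of a run of 19 of the 25 bases of miR-3472, against 11 of the 18 bases of miR-3473a and 11 of the 20 bases of miR-3473f.

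Signals are intensity units scaled between arrays, and a miRNA called undetected, or below 1.12 units, was set to a floor of 1.12 units in log2 values. Deposited signals summed to 57773 to 138147 intensity units per array, with 248 to 368 miRNAs called detected. All 4 listed hepatocyte miRNAs, among them miR-122-5p, the dominant hepatocyte miRNA, were detected on all 24 arrays. No array gave a detection call for any of the 6 miRNAs listed for leukocytes and Kupffer cells, the 5 for stellate cells and fibroblasts or the 3 for erythroid cells. Of 2 endothelial miRNAs miR-126a-3p was detected. The summed endothelial signal, as deposited and unscaled, lay between 0 and 9.53 units in zones 5 to 8 and between 0 and 10.9 units in zones 1 to 4. Of 5 biliary miRNAs miR-200b-3p was detected, with an unscaled sum of 0 to 2.39 units in zones 5 to 8 and 0 in zones 1 to 4. Every slide carried zones 5 to 8 in its second row and zones 1 to 4 in its first, so the 2 sides of the lobule and the slide rows cannot be told apart.

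miR-3472 was detected on 21 of 24 arrays, with 9 of 12 in zones 5 to 8 and 12 of 12 in zones 1 to 4. In zones 1 to 8 of mouse 1 it had 5.67, 7.86, 11.2, 9.20 and 3.55 units, no detection in zones 6 and 7, and 2.83 units. In mouse 2 it had 18.5, 9.59, 11.7, 22.7, 3.76 and 2.83 units, no detection in zone 7, and 2.28 units. In these mice every array of zones 5 to 8 was below every array of zones 1 to 4. In mouse 3 it had 6.54, 7.45, 13.2, 14.7, 16.0, 8.09, 5.79 and 5.46 units. The ranges of the 2 sides overlapped in mouse 3, whose highest value was in zone 5. In sorted bulk populations fewer cells with a miRNA and less of it per cell cannot be told apart.

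The difference between zones 5 to 8 and zones 1 to 4 was -2.13 log2 units in mouse 1, -2.69 in mouse 2 and -0.30 in mouse 3, with a mean of -1.71 ± 1.25 (SD, n = 3). From zone 4 to zone 5 the log2 signal changed by -1.37, -2.60 and 0.12 in mice 1, 2 and 3. Within zones 1 to 4 the slope was 0.27 ± 0.10 log2 units per zone (SE, mouse as a block), and within zones 5 to 8 it was -0.32 ± 0.17. By the zone means miR-3472 was highest in zone 4, the innermost zone of the pericentral side, with a mean log2 signal of 3.86 ± 0.65. The mean was 3.14 ± 0.93 in zone 1 and 2.58 ± 1.23 in zone 5. The lowest mean was that of zone 7, 0.95 ± 1.37 (SD over 3 arrays). The order from highest to lowest mean was zones 4, 3, 1, 2, 5, 8, 6 and 7, and no neighbours in that order differed by more than the larger of their SDs. With a slide-row term beside the mouse block the slope was -0.02 ± 0.15 per zone, against -0.33 ± 0.09 without row and block (SE). That term is the split between zones 5 to 8 and zones 1 to 4, so it leaves only the slopes within each side.

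miR-3473a and miR-3473b were detected on all 24 arrays and had nearly the same profile. The signal of miR-3473b in zones 1 to 8 was 138, 125, 196, 199.9, 145, 102, 112 and 157 units in mouse 1. It was 89.8, 85.9, 96.9, 145, 88.9, 88.1, 75 and 142 units in mouse 2, and 105, 110.0, 163, 159, 281, 194, 100.3 and 108 units in mouse 3. All 3 mice were higher in zone 4 than in zone 1 and higher in zone 8 than in zone 7. They parted at zone 5, which was below zone 4 in mice 1 and 2 and the highest of all 24 arrays in mouse 3. miR-3473a had 12.0, 11.5, 16.4, 20.6, 12.6, 9.61, 9.30 and 16.9 units in mouse 1. It had 9.83, 9.28, 10.1, 13.4, 9.45, 9.27, 8.36 and 18.1 units in mouse 2, and 9.70, 11.5, 14.8, 14.5, 31.5, 23.5, 9.95 and 13.4 units in mouse 3. Its highest value again came from zone 5 of mouse 3, the array with the most miRNAs detected (368) and the largest scale factor (1.34), and their part in these values was not tested.

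From zone 1 to zone 4 the log2 signal of miR-3473b differed by 0.54, 0.69 and 0.59 in mice 1, 2 and 3, with a mean of 0.61 ± 0.08, and that of miR-3473a by 0.60 ± 0.17 (SD, n = 3). Within zones 1 to 4 the slopes were 0.23 ± 0.05 per zone for miR-3473b and 0.21 ± 0.04 for miR-3473a (SE, mouse as a block), against a median of 0.02 over the 339 tested miRNAs. In that fit 24 miRNAs had a larger slope than miR-3473b, 33 a larger slope than miR-3473a, and 12 a larger slope than miR-3472. From zone 4 to zone 5 miR-3473b changed by -0.46, -0.71 and 0.82 in mice 1, 2 and 3, and miR-3473a by -0.71, -0.50 and 1.12. Between zones 5 to 8 and zones 1 to 4 the mean log2 difference was -0.06 ± 0.29 for miR-3473b and 0.07 ± 0.42 for miR-3473a (SD, n = 3). A line over all 8 zones left almost nothing of this, with fitted changes from zone 1 to zone 8 of 0.03 ± 0.30 log2 units for miR-3473b and 0.24 ± 0.30 for miR-3473a (SE).

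The mean signal of miR-3473b was 111 ± 24.5 units in zone 1, 168 ± 28.5 in zone 4, 95.8 ± 18.9 in zone 7 and 135 ± 25.0 in zone 8 (SD over the 3 mice). Its order from highest to lowest mean log2 signal was zones 4, 5, 3, 8, 6, 1, 2 and 7, and no neighbours differed by more than the larger of their SDs. For miR-3473a the order was zones 8, 4, 5, 3, 6, 2, 1 and 7. Only its last neighbours, zones 1 and 7, differed by more than both SDs, with a gap of 0.19 log2 units against SDs of 0.17 and 0.13.

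miR-3473f was detected on 10 of 24 arrays, 8 of 12 in zones 5 to 8 and 2 of 12 in zones 1 to 4. In mouse 1 it was detected in zone 8, at 2.38 units, and in mouse 2 in zones 6, 7 and 8, at 2.08, 1.68 and 6.46 units. In mouse 3 it was detected in zones 2, 3, 5, 6, 7 and 8, at 0.89, 1.04, 5.55, 5.88, 0.97 and 3.50 units. Zone 8 was the zone in which all 3 mice had a signal, at 4.11 ± 2.10 units (SD, n = 3). The 2 detected values of zones 1 to 4, and that of zone 7 of mouse 3, were under the floor, so 7 arrays carried a value above it, all in zones 5 to 8. The error the files give for these signals was 8.88% to 31.6% of the signal, against 7.11% to 8.44% for miR-3473b.

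The difference of miR-3473f between zones 5 to 8 and zones 1 to 4 was 0.27, 1.00 and 1.58 log2 units in mice 1, 2 and 3. These values rest on the floor, since every array of zones 1 to 4 was set to it, and are not bounds. With a slide-row term beside the mouse block the slope of miR-3473f was 0.10 ± 0.12 per zone, against 0.21 ± 0.06 without row and block (SE). That term leaves only the slopes within each side, and the slope within zones 1 to 4 was fixed as flat by the floor. Without zone 8, and without row and block, the slope was 0.126. The order from highest to lowest mean was zones 8, 6, 5 and 7, then zones 1 to 4 together at the floor, and no neighbours differed by more than the larger of their SDs. Across 24 arrays the log2 signal of miR-3473f had a Pearson r of 0.61 with the number of miRNAs detected on the array and 0.64 with the log2 scale factor. The same value with the number detected was 0.49 for miR-3473a, 0.31 for miR-3473b and 0.28 for miR-3472, with a median of 0.11 over all tested miRNAs. The 24 arrays share 3 animals and slides, so these correlations have no p, and the part of array quality was not tested.

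**Figure D1:**
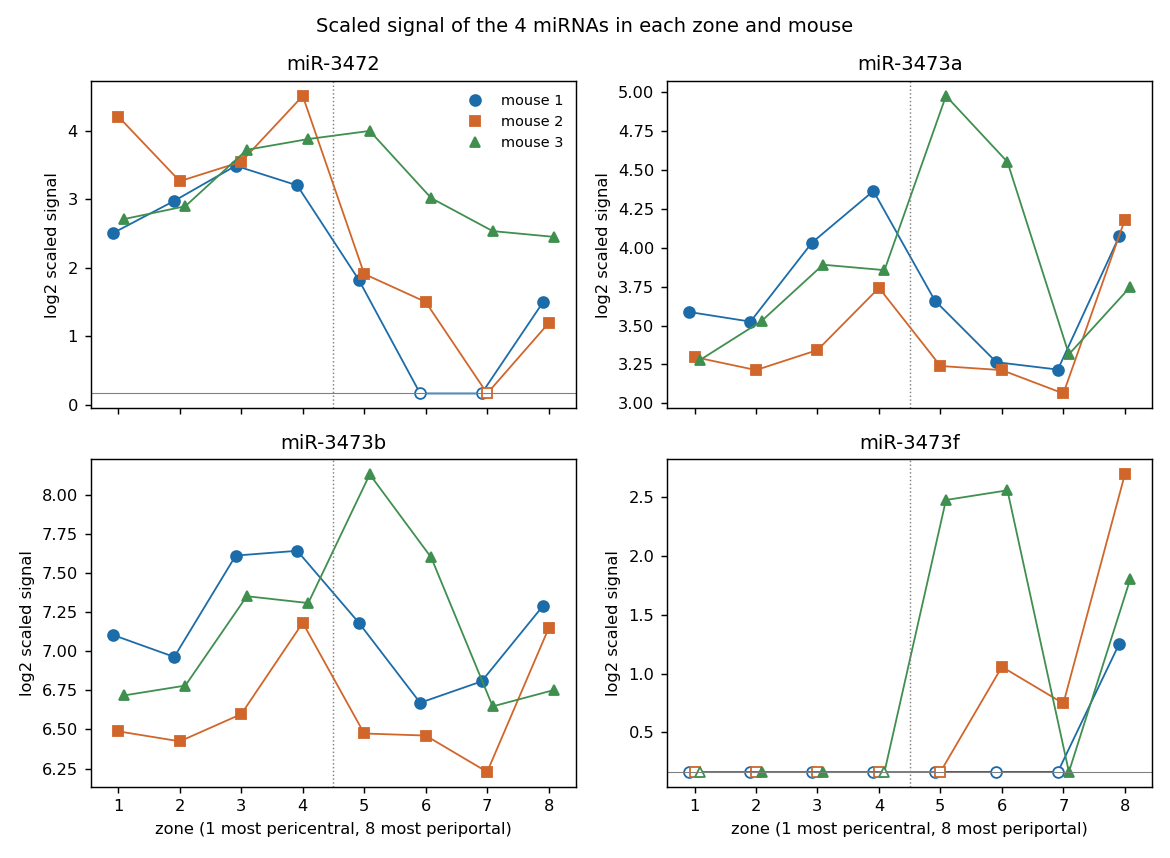
Scaled log2 signal (y axis) of the 4 miRNAs in zones 1 to 8 (x axis), with a point for each array and a line for each mouse. Open points are undetected arrays set to the floor (grey line), and the dotted line marks the change of slide row. miR-3472 was lower beyond zone 4 in mice 1 and 2, miR-3473a and miR-3473b had the same profile with a high zone 5 in mouse 3, and miR-3473f lay above the floor on 7 arrays, all in zones 5 to 8.

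The miRNAs had been chosen by values such as the slope on the zone number over all 24 arrays. Per mouse, the fitted zone 8 minus zone 1 change was -2.70, -3.78 and -0.47 log2 units for miR-3472 in mice 1, 2 and 3, and 0.64, 1.94 and 1.75 for miR-3473f. By size, miR-3472 had the 2nd most negative change and miR-3473f the 13th largest, and the median of all tested miRNAs was -0.10.

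A quadratic term on the zone number, fitted beside the slope over all miRNAs, called 0% of the 339 in limma, with 7 at an unadjusted p under 0.05. For the members the coefficient is given as a description, a negative sign being that of a profile higher at mid-lobule. It was -1.29 ± 0.98 for miR-3472, -0.49 ± 0.48 for miR-3473a, -0.72 ± 0.46 for miR-3473b and 0.71 ± 0.70 for miR-3473f (SE). The highest mean of miR-3473a was in zone 8. For miR-3473f the means of zones 1 to 4 were all at the floor, so its sign does not stand for a dip at mid-lobule.

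**Figure D2:**
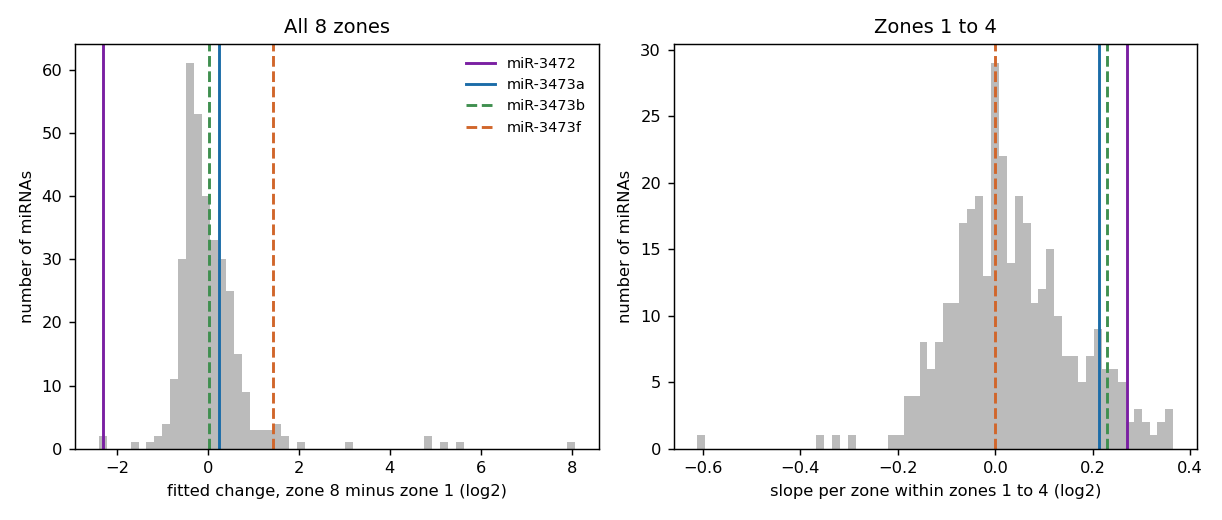
Histograms of the fitted log2 change from zone 1 to zone 8 (left) and of the slope per zone within zones 1 to 4 (right) over the 339 tested miRNAs (y axis, number of miRNAs), with lines for the 4 members. miR-3472 lay at the low end on the left (-2.32) and towards the high end on the right (0.27), and miR-3473f at 1.44 on the left.

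The members were next compared with each other and with the neighbouring miRNA numbers. Over 24 arrays, with each mouse's mean subtracted, the log2 signals of miR-3473a and miR-3473b had r = 0.95, the highest for each among 250 miRNAs detected on at least 18 arrays. Their log2 ratio had an SD of 0.18 over the arrays, against SDs of 0.49 and 0.48 for miR-3473a and miR-3473b on their own. These miRNAs share 16 consecutive bases, and whether the probes tell them apart was not tested. miR-3473f had r = 0.69 with miR-3473a and 0.49 with miR-3473b, and -0.26 with miR-3472, with most arrays of miR-3473f at the floor. miR-3472 had r = 0.38 with miR-3473a and 0.52 with miR-3473b, which gave these ranks of 90 and 58 among the 250 miRNAs. Levels of different miRNAs were not compared, because probes differ in signal per molecule.

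After each other, miR-3473a and miR-3473b were most like miR-3470a (r = 0.93 and 0.87) and miR-706 (0.92 and 0.87). miR-706 has the mature sequence below, which shares no run of more than 5 bases with either, and is shown because its profile was close to theirs while its sequence is unlike them.
miR-706: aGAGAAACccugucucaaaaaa
The lowest values were those of miR-22-3p (-0.77), miR-103-3p (-0.71) and miR-130a-3p (-0.66) for miR-3473a, and of miR-103-3p (-0.71), miR-22-3p (-0.70) and miR-365-3p (-0.675) for miR-3473b. miR-3472 was most like miR-709 (0.89), miR-7036a-5p (0.88) and miR-30c-1-3p (0.88), and least like miR-101c (-0.90), miR-26a-5p (-0.88) and miR-101a-3p (-0.87). These values describe 24 arrays from 3 animals and carry no p. By the arrays on which it was detected, miR-3473f was most like miR-874-3p, which shared 8 of the 11 arrays on which either was detected. miR-195a-5p shared 10 of 14 and miR-193b-3p 7 of 10.

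Of the other miR-3473 rows on the array, miR-3473c was detected on 21 arrays, miR-3473g on 24, miR-3473e on 4 and miR-3473d on none. The 4 arrays with miR-3473e were zone 8 of mouse 2 (2.47 units) and zones 5, 6 and 8 of mouse 3 (3.03, 2.45 and 1.51 units), and miR-3473f was detected on all 4. miR-3473e shares 18 consecutive bases with miR-3473b, and it was undetected on 20 arrays on which miR-3473b was detected. miR-3473g, which shares no run of more than 6 bases with miR-3473a, miR-3473b or miR-3473f, had r = -0.52 with miR-3473a, -0.36 with miR-3473b and -0.80 with miR-3473f. Without subtracting mouse means its r with these 3 was -0.59, -0.55 and -0.50.

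**Figure D3:**
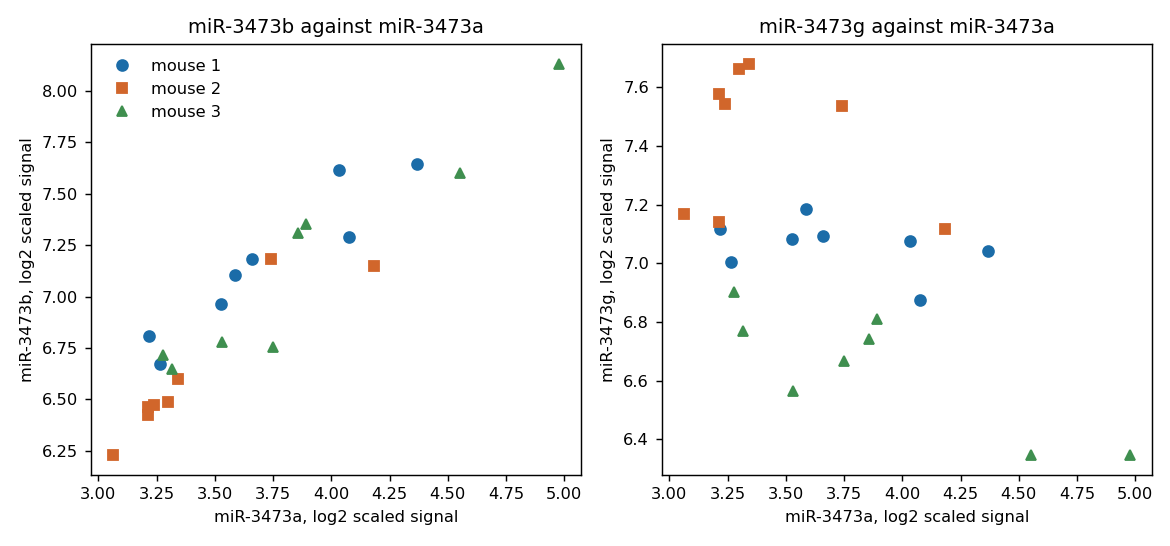
Scaled log2 signals of miR-3473b (left) and miR-3473g (right) against miR-3473a (x axes), with a point for each of 24 arrays and a colour and shape for each mouse. miR-3473b followed miR-3473a in all 3 mice (r = 0.95 with mouse means subtracted), while miR-3473g had r = -0.52.

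Of the 9 rows from miR-3470 to miR-3475 that are not members, 4 were detected on at least 6 arrays and tested on the zone slope, for which 10.3% of the 339 tested miRNAs rose and 6.49% fell. miR-3473c rose, with a fitted change of 0.84 ± 0.29 log2 units (SE, limma adjusted p = 0.0485), 0 fell, and miR-3470a, miR-3473g and miR-3475-5p did not pass, with changes of 0.18 ± 0.30, -0.33 ± 0.23 and 0.14 ± 0.54. With mouse as a block miR-3473g also passed, downward (limma adjusted p = 0.0242). The shares above are from the fit without a block, and that of the blocked fit is not given here. The call of miR-3473c was lost with summed signal scaling, quantile normalization or a lower floor (limma adjusted p = 0.0852, 0.163 and 0.111), and without mouse 2 or mouse 3 (0.147 and 0.328). The members were set apart from these rows with zone results of the same arrays known, so these p-values are not independent of that choice.

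**Figure D4:**
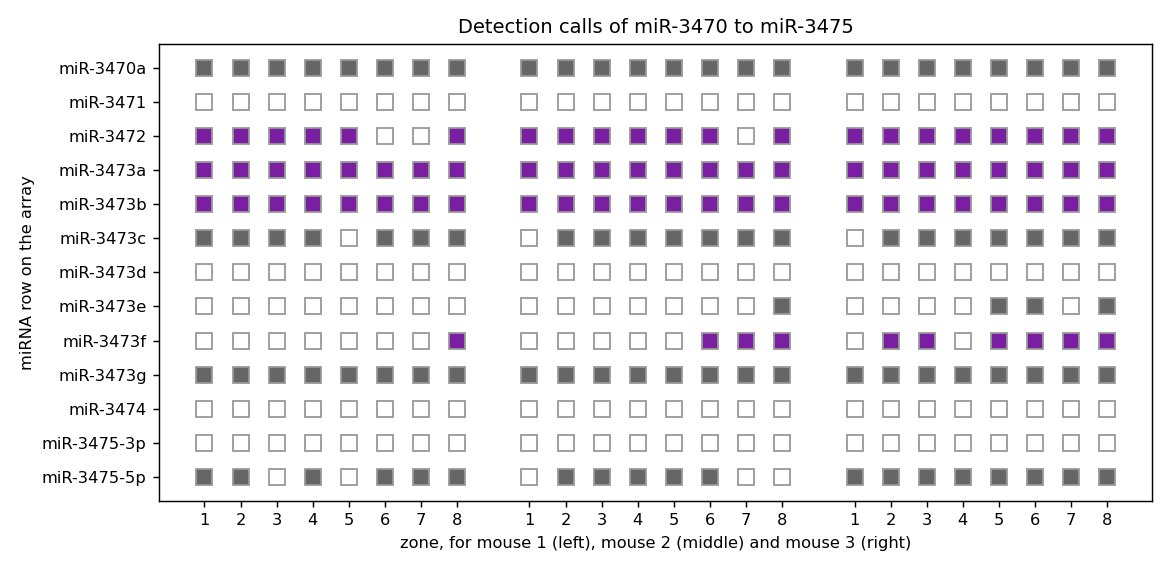
Detection calls of the 13 rows from miR-3470 to miR-3475 (y axis) in zones 1 to 8 of each mouse (x axis); filled squares are detected, open squares undetected, and the members are in purple. miR-3473a and miR-3473b were detected on all 24 arrays, miR-3472 lacked 3 arrays in zones 6 and 7, and miR-3473f was detected mostly in zones 5 to 8.

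Differences between mice were tested, since the members were chosen on their signals by zone. The choice used the same 24 arrays, and whether mouse differences played a part in it is not known. Each mouse is 1 animal on its own slide, so a call compares these 3 animals together with their slides, which cannot be told apart, and the 8 arrays of a mouse are not independent animals. In mouse 2 against mouse 1, 40.1% of the 339 miRNAs differed (limma, zone as a term), 24.5% higher and 15.6% lower in mouse 2, and of the 4 members miR-3473b did, with a lower signal in mouse 2 in 8 of 8 zones. The lowest, median and highest signals of miR-3473b were 75, 89.3 and 145 units in mouse 2, against 102, 142 and 199.9 units in mouse 1. The log2 difference was -0.53 ± 0.18 (SE, limma adjusted p = 0.0240). It was lost without zone 2, 3 or 7 (adjusted p = 0.0530, 0.0909 and 0.0548 in limma) and in the unscaled signals (0.172).

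In mouse 3 against mouse 1, where 25.7% of all tested miRNAs differed (16.2% higher and 9.44% lower in mouse 3), miR-3472 was higher in mouse 3 by 1.17 ± 0.37 log2 units (SE, limma adjusted p = 0.0259), in 7 of 8 zones. miR-3472 was detected on 8 of 8 arrays of mouse 3 and on 6 of 8 of mouse 1, and its mean log2 signal was 3.15 ± 0.62 in mouse 3 and 1.98 ± 1.30 in mouse 1 (SD over 8 arrays). The difference lay mostly in zones 5 to 8, with means of 3.00 in mouse 3 and 0.91 in mouse 1, whose undetected arrays were set to the floor. In zones 1 to 4 the means were 3.30 and 3.04. It is therefore not a uniform difference along the lobule, and it overlaps with the zone profile of mouse 3 described above. The call was lost without zone 5, 6 or 7 (limma adjusted p = 0.0673, 0.0910 and 0.0689), without the array of mouse 3, zone 5 (0.0598), with summed signal scaling (0.110) and with no zone term (0.148). In mouse 3 against mouse 2, where 39.2% differed (20.4% higher and 18.9% lower in mouse 3), miR-3473b was higher in mouse 3 by 0.54 ± 0.18 (limma adjusted p = 0.0258), in 7 of 8 zones. Its lowest, median and highest signals were 100.3, 134 and 281 units in mouse 3, against the values of mouse 2 given above. That call was lost without zone 3, 5 or 6 (limma adjusted p = 0.0651, 0.0778 and 0.0636), without the array of mouse 3, zone 5 (0.0570), and with summed signal scaling (0.222).

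miR-3473a differed in the same direction as miR-3473b without passing, by -0.30 ± 0.20 in mouse 2 against mouse 1 and 0.48 ± 0.20 in mouse 3 against mouse 2 (limma adjusted p = 0.259 and 0.0720). miR-3473f was detected on 6 of 8 arrays of mouse 3, 3 of 8 of mouse 2 and 1 of 8 of mouse 1. Its difference in mouse 3 against mouse 1 was 0.66 ± 0.31 (limma adjusted p = 0.122). Each of these comparisons shares arrays with the other two.

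**Figure D5:**
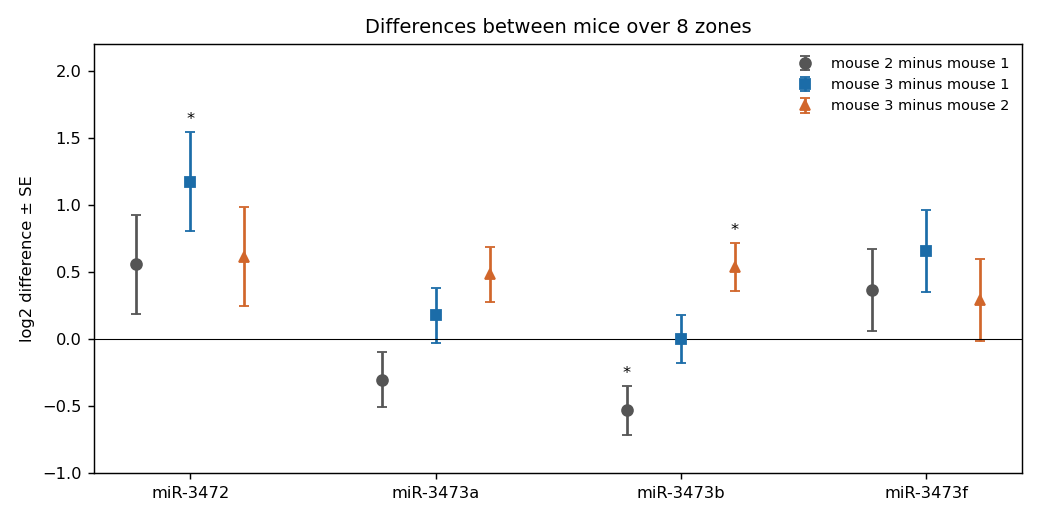
Log2 difference between mice over 8 zones (y axis, point with SE bar) for the 4 members (x axis) in the 3 comparisons; an asterisk marks a limma adjusted p under 0.05. The 3 asterisks are miR-3472 in mouse 3 minus mouse 1 (1.17) and miR-3473b in mouse 2 minus mouse 1 (-0.53) and mouse 3 minus mouse 2 (0.54).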

How the data were processed

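Total RNA from each sorted population was hybridised with Cy3 to a 1-colour Agilent array, per the labels' protocols. The authors deposited intensity values, the total signal of each miRNA and its error, and name Agilent Feature Extraction in the submitters' processing notes; its version, probe summary and scaling are not given in the sources used here. Per the file headers a detection call of 1 or 0 was also deposited, and values called undetected were listed at 0.1 with an error of 1. Control sequences (21) were removed. Arrays were scaled to a common 75th percentile, computed over 198 miRNAs detected on every array. Scaled signals below 1.12, the median of the arrays' lowest detected signals, were set to that floor before log2. A miRNA entered the fits when detected on 6 or more arrays, which 339 did, all 4 members among them. Fits were made in R 4.3.3 with limma 3.58.1 over all 339 miRNAs, two-sided, adjusted by Benjamini-Hochberg, with a threshold of 0.05. They were the slope on the zone number (a rank, no block), a quadratic term and pairwise mouse contrasts with zone as a term. Alternatives were other scalings, floors and filters, mouse as a block, slide row as a term, and leaving out mice, zones or an array. The number of arrays limits the precision.

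The members and lists were chosen with earlier results of these data known. The named miRNAs were the 4 members, all rows from miR-3470 to miR-3475, the 3 miRNAs of highest and of lowest r with each member detected on 18 or more arrays, the 3 that shared most detected arrays with miR-3473f, and miR-122-5p. Mouse numbers pair the arrays by animal. Within a mouse the deviations from zone means had a median correlation of 0.610, and the lowest was 0.254. Sequences came from RefSeq tables on GRCm38.p6. Plots used matplotlib 3.10.9 and Python 3.11.15.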

Additional observations from a re-analysis of the deposited data

How the results depend on the processing

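With mouse as a replicate block the slopes were the same, since every mouse has every zone: -0.33 per zone for miR-3472, 0.03 for miR-3473a, 0.0036 for miR-3473b and 0.21 for miR-3473f. Slide row beside the block moved all 4, to -0.0246 for miR-3472, 0.0892 for miR-3473a, 0.0670 for miR-3473b and 0.102 for miR-3473f. The row term is the same split as that between the sides of the lobule. It takes out the whole difference between the sides and leaves the slopes within them, so it cannot show an effect of slide row. Slopes without a mouse ran from -0.463 to -0.226 for miR-3472, 0.0202 to 0.0588 for miR-3473a, -0.0096 to 0.0218 for miR-3473b and 0.170 to 0.263 for miR-3473f. Without zone 1 and without zone 8 the slopes were -0.413 and -0.376 for miR-3472, 0.0111 and 0.00513 for miR-3473a, -0.0249 and -0.00627 for miR-3473b, and 0.241 and 0.126 for miR-3473f. The sign for miR-3473b is not settled, and the small slope of miR-3473a rests largely on the end zones. Without scaling miR-3473b moved to 0.0364, and with a floor 4 times lower miR-3473f moved to 0.448, since most of its values are at the floor. No slope of miR-3472 or miR-3473f changed sign under the alternatives run, but these refit the arrays on which the members were chosen and are no support. With slide row as a term neither sign is settled, at -0.02 ± 0.15 for miR-3472 and 0.10 ± 0.12 for miR-3473f (SE).

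Of all tested miRNAs 40.1% differed in mouse 2 against mouse 1, 25.7% in mouse 3 against mouse 1 and 39.2% in mouse 3 against mouse 2. The count of members that differed between mice was 1 in each comparison. Without a zone it was 0 to 1 in mouse 2 against mouse 1, 0 to 1 in mouse 3 against mouse 1 and 0 to 2 in mouse 3 against mouse 2. Without scaling it was 0 in mouse 2 against mouse 1 and 3 in mouse 3 against mouse 2. With the summed signal it was 0 in mouse 3 against mouse 1 and 0 in mouse 3 against mouse 2. In mouse 3 against mouse 1 it was 2 with the lower floor, with miR-3473f as the added member. In that comparison it was 0 without a zone term and 0 among miRNAs detected on all 24 arrays, which leave out miR-3472. Without the array of mouse 3, zone 5, chosen after the values were seen, it was 0 in both comparisons of mouse 3. The share of all tested miRNAs called under each alternative is not given here, so the changed counts cannot be set against it. The cause of these changes in the count was not tested. Undetected values have no order, which limits statements on miR-3473f to detection in zones 1 to 4.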
